A study of Mus musculus with 6 samples.

Results

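The genes described here build long-chain fatty acids and then desaturate, lengthen and activate them. They were Fasn, Acaca, Acly, Scd1, Scd2, Fads1, Fads2, Elovl5, Elovl6 and Acsl3, and every non-control probe whose accession maps to one of these symbols was taken, which gave 13 of the 39429 probes on the array and 10 of the 25777 genes and unnamed transcripts tested. MIN6B1 cells are an insulin-secreting line derived from a mouse insulinoma and stand in for pancreatic beta cells. All 6 samples were MIN6B1 cells lipofected with a small interfering RNA (siRNA) and harvested after 48 h: 3 received siGFP, directed at green fluorescent protein and used as the control, and 3 received an siRNA directed at circHIPK3, the circular transcript that arises from Hipk3 by back-splicing. Total RNA of each sample was labelled with Cy3 and hybridised to its own Agilent mouse array, and the study asked how silencing of the circular RNA altered mRNA levels. The labels name a single cell line and do not say that replicates came from separate cultures, so the spread behind each p-value is that of these samples alone and may be technical. As RNA was measured in bulk, fewer cells carrying a transcript and less transcript per cell cannot be told apart.

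In the cytosol, ATP citrate lyase (Acly) splits citrate into acetyl-CoA, acetyl-CoA carboxylase (Acaca) turns that into malonyl-CoA, and fatty acid synthase (Fasn) joins these units into palmitate. Elovl6 then lengthens saturated and monounsaturated chains, the stearoyl-CoA desaturases Scd1 and Scd2 place the first double bond, Fads1 and Fads2 desaturate essential polyunsaturated fatty acids, Elovl5 lengthens their products, and Acsl3 couples free fatty acids to coenzyme A. Transcription of these genes is known to be driven mainly by SREBP proteins (Srebf1 and Srebf2) and by the glucose-sensing factor ChREBP (Mlxipl) with its partner Mlx. In beta cells malonyl-CoA made by Acaca also restrains fatty acid oxidation and is tied to glucose-stimulated insulin secretion.

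Array signals are given as log2 of the processed signal over each array's own 75th percentile, and a change is the circHIPK3 siRNA mean minus the siGFP mean on that scale, given with its standard error (SE) from limma. Levels of different probes are not compared, since probes differ in brightness. The 75th percentile lay between 2939.2 and 3668.7 units and the share of probes well above background from 77.7% to 83.5% per array. All 13 probes were well above background on all 6 arrays, and none was saturated. The siGFP arrays and circHIPK3 siRNA replicate 1 were read in a single scan, and circHIPK3 siRNA replicates 2 and 3 in another scan whose array positions repeat those of the first, so that 2 slides were used. Of the beta cell markers checked, all 10 were well above background on every array, among them Ins1, Ins2, Iapp, Pdx1 and Mafa. Markers of other cell types were above background too: 5 of 5 for exocrine cells, 4 of 6 for other islet cells, 3 of 4 each for adipocytes, hepatocytes and fibroblasts, and 3 of 3 for leukocytes. The alpha cell hormone gene Gcg was so on every array, at an overlapping -0.59 ± 0.30 (SE, limma adjusted p = 0.292). Adipoq, the adipocyte hormone gene, was so on no siGFP array and on 2 circHIPK3 siRNA arrays. The counts for other cell types stand beside 77.7% to 83.5% of all probes per array, so they do not show which cells were present. By the brightest probe, the siGFP means of the counted markers of other cells ran from -6.15 to 4.51. Those of the exocrine markers lay between -5.91 and -4.83, which is dim on these arrays. No gene of the 7 marker lists passed limma's test at an adjusted p of 0.05, and the part of other cells in the results was not tested. Hipk3 itself did not pass the test with either of its probes (changes of -0.17 ± 0.14 and -0.31 ± 0.12, SE), and since the probe positions in the gene are not known here they give no check of the circular RNA.

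The 10 genes lay on both sides of 0, and the lowest 2 were enzymes of different branches, Fads2 and Elovl6. None of the 10 passed limma's test at an adjusted p of 0.05, where 1.18% of all genes did (0.64% lower and 0.535% higher). At an unadjusted p of 0.05, 2 of the 10 passed, Fads2 and Elovl6, both with lower signal after circHIPK3 siRNA. By that criterion 21.1% of all genes passed, 6.51% lower and 14.6% higher. By the brightest probe of each gene the groups did not overlap for 5 of the 10, all of them lower (Fads2, Elovl6, Fads1, Scd2 and Fasn), against 25.9% of all genes, 9.38% lower and 16.6% higher. The shares over all genes include genes well above background on all arrays of the siGFP or the circHIPK3 siRNA group alone. The probes of the 10 genes were so in both groups. The change was below 0 for 6 of the 10, against 35.9% of all genes, and below the median of all genes for 8 of the 10, where 50% of genes lie by definition. The latter count was 6 of 10 with quantile normalization, cyclic loess, normexp, the deposited log2 table and array weights. Among the 10, 9 lay in the brighter part of the array (12889 genes), where the median change was 0.00. Changes below 0 were therefore more frequent in that part than the 35.9% of all genes. Quantile normalization, cyclic loess, normexp and the deposited log2 table left 4 of the 5 genes lower without overlap, since Scd2 then overlapped, and all but normexp set 1 gene apart as higher (Acaca, or Acly with cyclic loess). Of all genes 11.6%, 12.5%, 9.71% and 11.5% then lay lower without overlap, and 12.1%, 11.3%, 8.35% and 12% higher. The median change of the 10 genes was -0.09, beside 0.08 for all genes, and without Fads2 and Elovl6 it was -0.01. These are counts over genes chosen with earlier results of these data known, and no test of the group as a whole was made.

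Fads2 encodes the desaturase that takes the first step from essential fatty acids to long-chain polyunsaturated ones. Its log2 signal was 0.91, 0.67 and 0.62 in the siGFP arrays and 0.11, 0.19 and 0.01 in the circHIPK3 siRNA arrays. Before scaling, its probe A_66_P130115 read 5505, 5828 and 5187 units in siGFP and 3865, 4179 and 3434 units in circHIPK3 siRNA arrays. The scaled groups were 0.43 apart at their nearest arrays, more than the range of 0.29 within siGFP or 0.18 within circHIPK3 siRNA. The change was -0.63 ± 0.12 (SE, n = 3 per group, limma adjusted p = 0.053), a 1.55-fold lower signal with a 95% interval of -0.90 to -0.36 on the log2 scale. Only 1.44% of all genes had a change as low. With slide as a block, which rests on circHIPK3 siRNA replicate 1 against the control arrays beside it, the change was -0.62 ± 0.17 (SE, limma adjusted p = 0.271).

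Elovl6 encodes the elongase that extends palmitate toward stearate. Its log2 signal was -1.46, -2.04 and -1.86 in the siGFP arrays and -2.48, -2.62 and -2.59 in the circHIPK3 siRNA arrays. Before scaling, its probe A_51_P463440 read 1067, 895 and 930 units in siGFP and 642, 596 and 567 units in circHIPK3 siRNA arrays. On the scaled values every circHIPK3 siRNA array lay below every siGFP array, by 0.45 at the nearest, and siGFP replicate 1 was the highest of the 6 arrays here and for Fads2. The change was -0.78 ± 0.16 (SE, n = 3 per group, limma adjusted p = 0.0616), which is 1.71-fold lower, with a 95% interval of -1.14 to -0.42. As low a change was found in 0.679% of all genes. Without siGFP replicate 1 the change was -0.62 for Elovl6 and -0.54 for Fads2. With slide as a block the change of Elovl6 was -0.70 ± 0.23 (SE, limma adjusted p = 0.343). When circHIPK3 siRNA replicate 1 was left out, Fads2 (limma adjusted p = 0.045) and Elovl6 (0.0475) passed, a setting in which group and slide cannot be told apart. In that setting 1737 of all 25777 genes passed, against 303 in the main one. Over 20 alternatives to the processing each of the 2 genes passed in 6 and lay lower in all. The lowest limma adjusted p was 0.0155 for Fads2 and 0.0247 for Elovl6, and with single arrays left out it rose to 0.179 and 0.198. Many of the alternatives could not turn the sign, since the groups did not overlap or the estimate stayed the same.

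**Figure D1:**
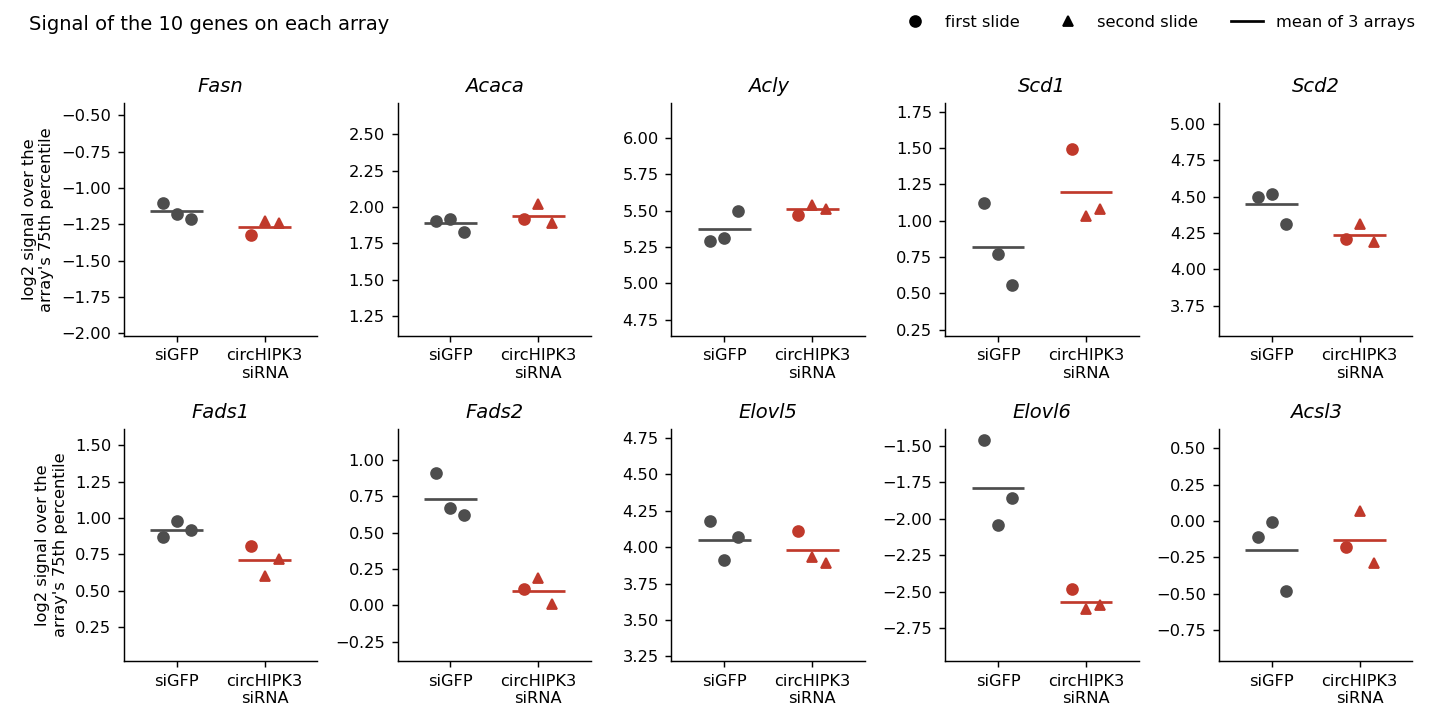
Log2 signal over the array's 75th percentile (y axis, the same span in every panel) for the 10 genes in the siGFP (grey) and circHIPK3 siRNA (red) arrays. Circles are arrays of the first slide, triangles those of the second, and lines are means of 3 arrays. Fads2 and Elovl6 are the panels with the widest gap between groups, 0.43 and 0.45, while Fasn, Scd2 and Fads1 are apart by at most 0.055.

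Promoter sequences are shown for the members that lay lowest, Fads2 and Elovl6, and for Elovl5 and Fasn, whose intervals included 0, so that the letters upstream of their starts can be compared. They are the 250 bases before the start of transcription in RefSeq (GRCm38.p6), 5′ to 3′ on the strand of the gene, and 7 of the 10 genes were matched in that table. Capitals mark matches, on either strand, to the sterol regulatory element TCACNCCAC, the E-box CACGTG, the CCAAT box CCAAT and the GC box GGGCGG.
Fads2, chr19:10101504-10101753, minus strand: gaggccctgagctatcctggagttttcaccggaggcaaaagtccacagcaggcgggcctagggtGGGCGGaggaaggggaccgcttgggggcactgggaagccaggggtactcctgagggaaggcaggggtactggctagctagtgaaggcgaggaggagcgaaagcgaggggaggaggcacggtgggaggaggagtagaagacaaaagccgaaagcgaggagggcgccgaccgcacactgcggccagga
Elovl6, chr3:129532136-129532385, plus strand: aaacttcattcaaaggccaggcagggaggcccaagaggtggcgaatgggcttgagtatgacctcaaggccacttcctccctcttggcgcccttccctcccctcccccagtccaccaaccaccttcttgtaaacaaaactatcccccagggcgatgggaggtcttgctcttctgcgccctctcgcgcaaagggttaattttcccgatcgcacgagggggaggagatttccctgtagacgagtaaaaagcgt
Elovl5, chr9:77917115-77917364, plus strand: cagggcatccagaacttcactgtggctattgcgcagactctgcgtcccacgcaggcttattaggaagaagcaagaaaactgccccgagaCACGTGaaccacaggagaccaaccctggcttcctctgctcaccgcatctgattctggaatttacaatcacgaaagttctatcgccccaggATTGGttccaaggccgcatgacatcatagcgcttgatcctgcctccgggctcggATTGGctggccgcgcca
Fasn, chr11:120824548-120824797, minus strand: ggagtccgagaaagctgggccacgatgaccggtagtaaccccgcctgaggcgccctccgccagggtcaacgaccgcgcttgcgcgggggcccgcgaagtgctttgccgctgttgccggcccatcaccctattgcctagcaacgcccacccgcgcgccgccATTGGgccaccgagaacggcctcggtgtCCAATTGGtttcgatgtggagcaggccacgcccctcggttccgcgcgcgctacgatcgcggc

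The sterol regulatory element was found in none of the 7 windows and in 1.05% of all 32851 promoter windows of that length. The E-box was found in Elovl5 alone (6.02% of all windows). CCAAT was found in 3 of the 7, Acsl3, Elovl5 and Fasn (33.8% of all), and in Fasn it occurred 3 times, in part overlapping on opposite strands. The GC box was found in 3 of the 7, Acly, Acsl3 and Fads2 (32.7% of all), in Fads2 as a single match 181 to 186 bases before the start. Elovl6 had no match to any of the 4 motifs in this window, which says only that these letters are not there. GC content was 64.8% for Fads2, 56.4% for Elovl6, 55.6% for Elovl5 and 69.2% for Fasn, beside a median of 52.4% over all windows. The Acaca window, counted among the 7 but not printed, had the lowest GC content of them, 39.2%, with 0 CG dinucleotides. Whether it covers the promoter used in these cells was not tested.

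The other fatty acid desaturase gene, Fads1, is the neighbour of Fads2 on chromosome 19 and encodes the enzyme for a later step of the same series. Its log2 signal was 0.87, 0.98 and 0.92 in the siGFP arrays and 0.81, 0.60 and 0.72 in the circHIPK3 siRNA arrays. The groups were separate, but by 0.055 only. The change was -0.21 ± 0.10 (SE, limma adjusted p = 0.273), with a 95% interval of -0.44 to 0.02, and -0.11 ± 0.14 (SE) with slide as a block. Elovl5, which lengthens polyunsaturated chains between the Fads2 and Fads1 steps, had a log2 signal of 4.18, 3.91 and 4.07 in the siGFP arrays and 4.11, 3.93 and 3.89 in the circHIPK3 siRNA arrays. Its groups overlapped, and the change of -0.08 ± 0.11 (SE, limma adjusted p = 0.725) became 0.06 ± 0.15 (SE) with slide as a block.

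The stearoyl-CoA desaturase genes lay on opposite sides of 0. Scd1 had a log2 signal of 1.12, 0.77 and 0.56 in the siGFP arrays and 1.49, 1.03 and 1.08 in the circHIPK3 siRNA arrays. The groups overlapped, because siGFP replicate 1 lay above circHIPK3 siRNA replicates 2 and 3. The change was 0.38 ± 0.18 (SE, limma adjusted p = 0.276), with a 95% interval of -0.05 to 0.81. It was 0.67 ± 0.22 (SE, limma adjusted p = 0.348) with slide as a block and 0.24 ± 0.17 (SE) without circHIPK3 siRNA replicate 1, which had the highest signal of the 6 arrays. Scd2, one of several Scd genes clustered with Scd1 on chromosome 19, had 4.50, 4.52 and 4.31 in the siGFP arrays and 4.21, 4.31 and 4.19 in the circHIPK3 siRNA arrays. The groups were 0.004 apart, and the change was -0.21 ± 0.10 (SE, limma adjusted p = 0.284, 95% interval of -0.45 to 0.03).

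Differences between related genes on the same array do not depend on a factor that scales the whole array. A shift that varies with signal, as described below, need not cancel in them. The siGFP means were -1.79 for Elovl6 and 4.05 for Elovl5, 0.82 for Scd1 and 4.45 for Scd2, and 0.73 for Fads2 and 0.92 for Fads1. Relative to the siGFP mean, Scd1 minus Scd2 was 0.91, 0.35 and 0.52 in the circHIPK3 siRNA arrays and 0.25, -0.12 and -0.12 in the siGFP arrays, a mean shift of 0.59. All circHIPK3 siRNA arrays lay above all siGFP arrays. Elovl6 minus Elovl5 was -0.76, -0.71 and -0.64 in the circHIPK3 siRNA arrays, a mean of -0.70 ± 0.06 (SD, n = 3), against 0.20, -0.11 and -0.09 in the siGFP arrays. Fads2 minus Fads1 was -0.51, -0.22 and -0.52, a mean of -0.42 ± 0.17 (SD, n = 3), against 0.23, -0.12 and -0.11. Here circHIPK3 siRNA replicate 2 lay only a little below the lowest siGFP arrays. Each of the 3 differences had a two-sided exact permutation p of 0.10, the smallest that 3 against 3 arrays allow. It is the same when adjusted over the 3 pairs, so that this test could not reach 0.05 here. Acly minus Fasn was also computed but is not shown, and its circHIPK3 siRNA arrays too lay slightly above its siGFP arrays. The pairs were chosen with earlier results known, and the share of separate pairs over all genes was not computed.

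**Figure D2:**
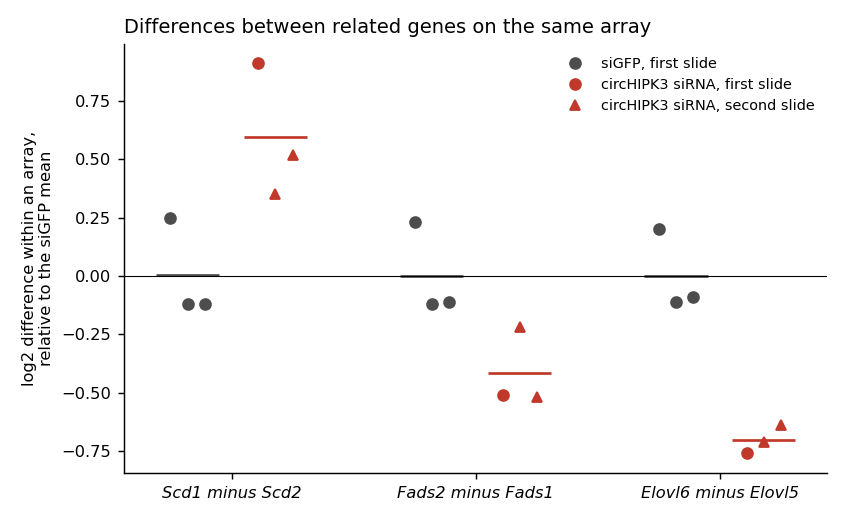
Within-array log2 difference between 2 related genes, relative to the mean of the siGFP arrays (y axis), for the 3 pairs. Grey points are siGFP and red points circHIPK3 siRNA arrays, triangles mark the second slide, and lines are means. The circHIPK3 siRNA means lie at 0.59 for Scd1 minus Scd2, -0.42 for Fads2 minus Fads1 and -0.70 for Elovl6 minus Elovl5.

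For the enzymes of palmitate synthesis the 95% intervals of all 6 probes included 0. Fasn had a log2 signal of -1.10, -1.18 and -1.21 in the siGFP arrays and -1.32, -1.23 and -1.24 in the circHIPK3 siRNA arrays, 0.024 apart. The change of Fasn was -0.10 ± 0.09 (SE, limma adjusted p = 0.536), with a 95% interval of -0.32 to 0.11. The brightest Acaca probe had 1.90, 1.92 and 1.83 against 1.92, 2.02 and 1.89, with overlapping groups. Its change was 0.05 ± 0.09 (SE, limma adjusted p = 0.758, 95% interval of -0.16 to 0.27), and the other 2 Acaca probes gave 0.07 ± 0.09, with the circHIPK3 siRNA arrays higher by 0.005 at their nearest, and -0.01 ± 0.11 (SE). The brighter Acly probe had 5.29, 5.31 and 5.50 against 5.47, 5.54 and 5.51, a change of 0.14 ± 0.10 (SE, limma adjusted p = 0.429, 95% interval of -0.09 to 0.38). The second Acly probe, matched to another transcript accession of the gene, gave 0.19 ± 0.11 (SE), with the circHIPK3 siRNA arrays 0.031 above the siGFP arrays at their nearest. The probes of each of these genes thus differed from one another by less than their errors.

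Acsl3, an acyl-CoA synthetase of the endoplasmic reticulum and lipid droplets, had a log2 signal of -0.11, -0.01 and -0.48 in the siGFP arrays and -0.18, 0.07 and -0.29 in the circHIPK3 siRNA arrays. The groups overlapped almost completely. The change was 0.07 ± 0.16 (SE, limma adjusted p = 0.833), and its 95% interval of -0.30 to 0.43 was among the wider ones. Its sign turned with median scaling and without siGFP replicate 3 or circHIPK3 siRNA replicate 2 (-0.04, -0.07 and -0.04). That of Acaca turned with median scaling (-0.05).

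**Figure D3:**
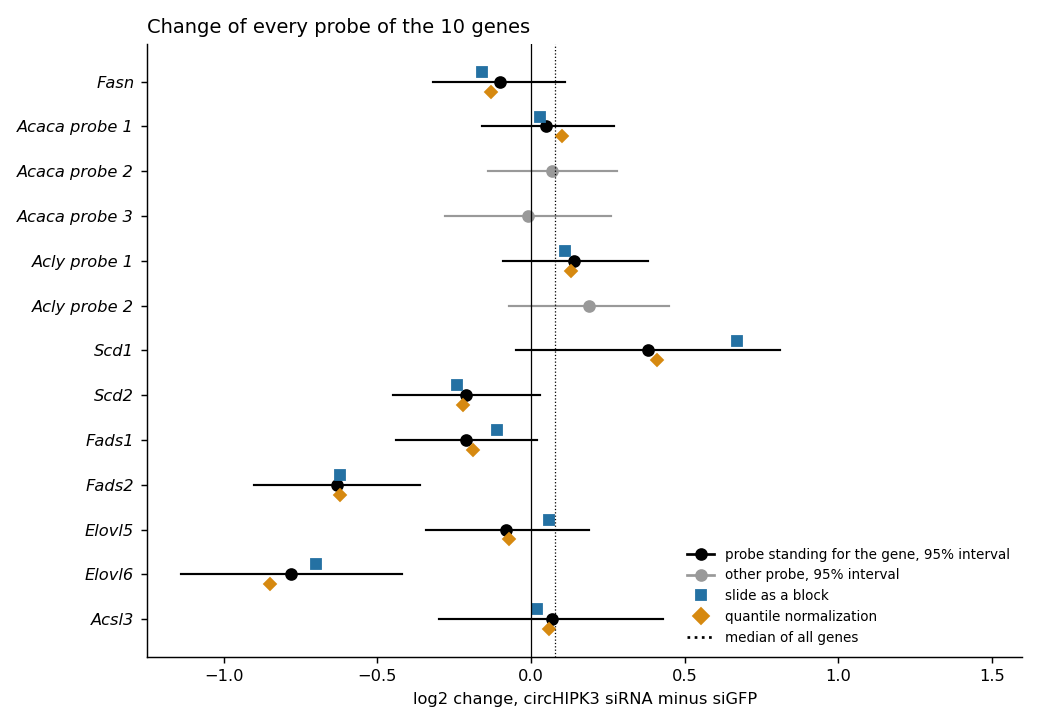
Log2 change of each of the 13 probes (x axis, circHIPK3 siRNA minus siGFP) with 95% intervals, black for the probe that stands for its gene and grey for the other probes. Blue squares give the change with slide as a block and orange diamonds that after quantile normalization. The intervals of Fads2 (-0.90 to -0.36) and Elovl6 (-1.14 to -0.42) lie below 0 before adjustment for the number of genes, and those of the other 8 genes include 0.

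The change depended on signal across the array, higher at dim signal. The median change was 0.39 in the dimmest of 20 bins of equal size and between -0.02 and 0.06 in the 10 brightest bins. Of the 10 genes 9 lay in the brighter part of the array, where the median change over 12889 genes was 0.00. Elovl6 was the only member in the dimmer part, where the median change was 0.22.

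**Figure D4:**
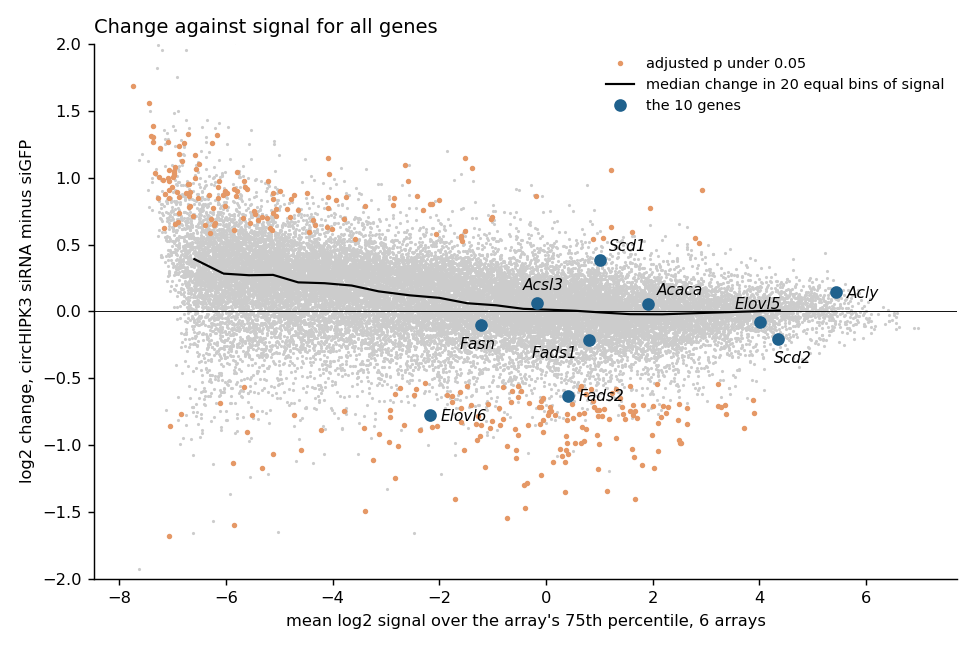
Log2 change (y axis) against mean log2 signal over the 6 arrays (x axis) for all 25777 genes and unnamed transcripts (grey), with those at an adjusted p under 0.05 in orange, the 10 genes in blue and the median change in 20 bins of signal as a line. Most members lie near the line, Scd1 lies above it at 0.38, and Fads2 and Elovl6 lie below it at -0.63 and -0.78.

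The wider pathway was read from 7 lists with 115 genes, of which 112 were tested, and 3 passed the limma test, all lower, or 2.68% against 1.18% of all genes. The median of the 112 was 0.00, where all genes had 0.08 and those in the brighter part of the array 0.00. Mlx, the obligate partner of the lipogenic factor ChREBP, fell the most of the 112. Its log2 signal was 1.90, 1.62 and 1.85 in the siGFP arrays and 0.88, 0.74 and 0.90 in the circHIPK3 siRNA arrays, a change of -0.95 ± 0.11 (SE, limma adjusted p = 0.0301) and 1.93-fold. The groups were far apart compared with the spread within each. Idh2, a mitochondrial isocitrate dehydrogenase that makes NADPH, fell from 4.24, 4.20 and 4.19 to 3.48, 3.67 and 3.50, a change of -0.66 ± 0.10 (SE, limma adjusted p = 0.039). Elovl1, which lengthens saturated very long chains, fell from 1.63, 1.44 and 1.55 to 0.90, 1.04 and 0.84. Its change was -0.61 ± 0.10 (SE, limma adjusted p = 0.049), and its second probe, adjusted over all kept probes, lay at -0.61 ± 0.10 (SE, limma adjusted p = 0.0446).

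The 3 calls were lost with 5 of the 6 arrays taken out in turn. Without siGFP replicate 1, 2 or 3, or without circHIPK3 siRNA replicate 2 or 3, no gene of the lists passed (0 of 112). The loss was not particular to the lists, since 0 or 1 of all 25777 genes passed in each of these settings. Mlx then had a limma adjusted p between 0.0779 and 0.15, Idh2 between 0.0779 and 0.166 and Elovl1 between 0.0985 and 0.194. Without circHIPK3 siRNA replicate 1, where 1737 of all genes passed, the limma adjusted p of Mlx, Idh2 and Elovl1 was 0.0251, 0.0333 and 0.0418. With slide as a block the changes were -0.91 ± 0.17 for Mlx, -0.74 ± 0.14 for Idh2 and -0.64 ± 0.15 for Elovl1 (SE), with limma adjusted p of 0.156, 0.162 and 0.219. Over the 20 alternatives the lowest limma adjusted p was 0.00213 for Mlx, 0.00323 for Idh2 and 0.0101 for Elovl1, and the 3 genes lay lower in all. Their groups did not overlap in the main setting, so many of these alternatives could not turn the sign.

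By list, none of the genes passed among the other desaturation genes (10 tested), other acyl-CoA activation genes (11), glycerolipid assembly (16) and fatty acid oxidation (24). The regulators list (25) and the substrate supply list (16) had 1 lower gene each, Mlx and Idh2, and other elongation genes (10) had 1, Elovl1. No gene of any list was called higher. List medians ran from -0.14 for substrate supply, where 14 of 16 genes lay below the median of all genes, to 0.20 for acyl-CoA activation, where 3 of 11 did. The acyl-CoA activation list also holds thioesterase genes, Acot2 among them, so it does not stand for activation alone. The acyl-CoA activation median was 0.09 to 0.12 under the other scalings and in the deposited table, and -0.03 with slide as a fixed block, where that of substrate supply was -0.09. Fatty acid oxidation, the opposing pathway, had a median of 0.00 with 19 of 24 genes below the median of all genes. Its median minus that of all genes was -0.08. This difference was -0.04 to -0.02 with quantile normalization, cyclic loess, normexp and the deposited table, and 0.04 with slide as a fixed block. The list's member with the smallest p, the oxidation enzyme gene Hadh, lay at -0.32 ± 0.12 (SE, limma adjusted p = 0.193). Dgat2, which completes triglyceride synthesis, lay at -0.77 ± 0.14 (SE) and just missed the threshold (limma adjusted p = 0.0506). It passed in 7 of the 20 alternatives: median scaling, cyclic loess, normexp, every kept probe, trend and robust variance, array weights, and without circHIPK3 siRNA replicate 1. Cyb5a, the cytochrome that passes electrons to desaturases, lay at -0.34 ± 0.12 (SE, limma adjusted p = 0.181), and the mitochondrial thioesterase gene Acot2 at 0.90 ± 0.36 (SE, limma adjusted p = 0.214). The value of Acot2 was 0.53 without siGFP replicate 3, 0.44 with normexp and 1.44 with slide as a fixed block. Its probe was dim, at -5.29, -4.92 and -6.22 in the siGFP arrays, and in the bin with a median signal of -5.12 the median change of all genes was 0.27.

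**Figure D5:**
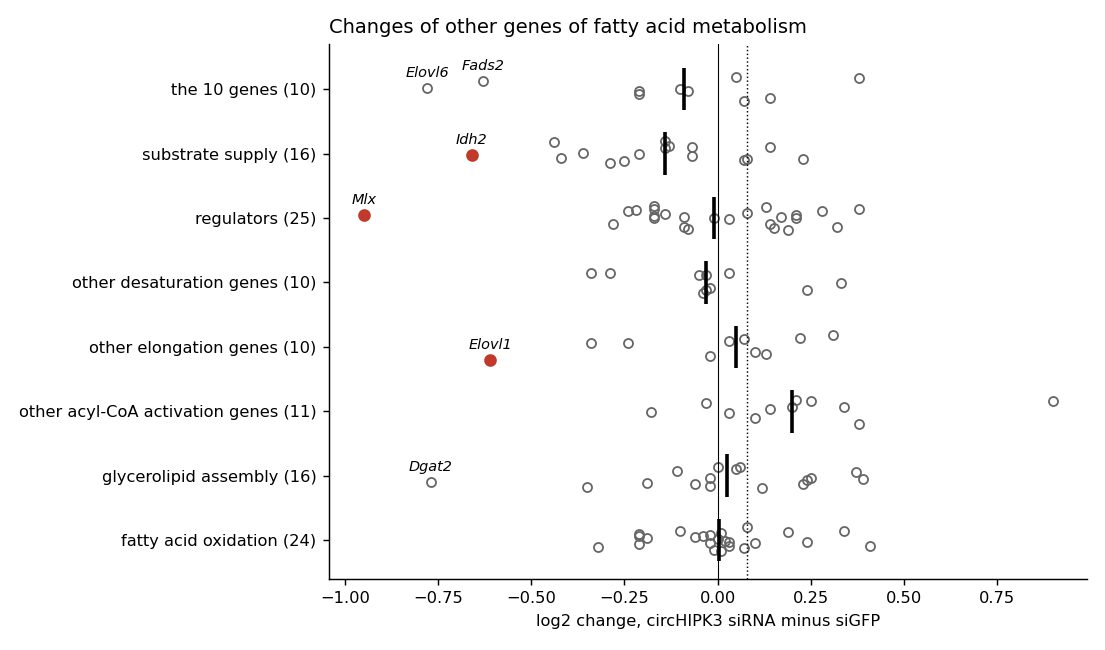
Log2 change (x axis) of each tested gene in the set of 10 and in the 7 lists of other genes of fatty acid metabolism, with numbers tested in brackets. Filled red points passed at an adjusted p of 0.05, thick bars are list medians and the dotted line is the median of all genes at 0.08. Mlx, Idh2 and Elovl1 are the filled points, and Dgat2, Fads2 and Elovl6 are labelled although they did not pass.

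Of the 25 regulators tested none but Mlx passed. Without overlap of the groups, 4 of the 25 lay higher and 2 lower, against 16.6% and 9.38% of all genes. Srebf1, which encodes the SREBP form tied to lipogenesis, had a log2 signal of 0.31, 0.23 and 0.40 in the siGFP arrays and 0.45, 0.55 and 0.45 in the circHIPK3 siRNA arrays. The circHIPK3 siRNA arrays were all the higher ones, at a change of 0.17 ± 0.10 (SE, limma adjusted p = 0.349). Srebf2, the form tied to sterol synthesis, lay at 0.14 ± 0.16 (SE, limma adjusted p = 0.634) and its second probe at 0.16 ± 0.14 (SE). Insig1, which retains SREBP in the endoplasmic reticulum and is itself an SREBP target, lay at -0.17 ± 0.16 (SE, limma adjusted p = 0.552), from -0.28 to -0.05 with single arrays left out and 0.04 with slide as a block. Among the other genes that control SREBP processing, Insig2, a second retention factor, lay at 0.21 ± 0.09 (SE, limma adjusted p = 0.25) with the groups apart and its second probe at an overlapping 0.29 ± 0.14. The protease gene Mbtps1 lay at 0.15 ± 0.10 (SE, limma adjusted p = 0.395) with the groups apart. The protease gene Mbtps2 (0.21 ± 0.11, SE) and the escort gene Scap (-0.09 ± 0.10, SE) had overlapping groups. Mlxipl, which encodes ChREBP, lay at -0.24 ± 0.15 (SE, limma adjusted p = 0.373) by its brighter probe and at 0.08 ± 0.12 (SE) by the other. The value of the brighter probe ran from -0.38 (without circHIPK3 siRNA replicate 2) to -0.15 (without circHIPK3 siRNA replicate 3) and was -0.09 with array weights.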

How the data were processed

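Total RNA from 6 MIN6B1 samples was measured on 1-colour Agilent arrays. The deposited scanner files hold a processed intensity per spot, background-subtracted with Agilent Feature Extraction 11.0.1.1, and raw intensity medians, per the file headers. The authors' deposited table of log2 values has nearly equal quartiles in all columns (medians 9.7965 to 9.7968) and follows the log2 processed intensity of each array; the sources used here do not give its normalization or filter.

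From each array's log2 processed intensity its 75th percentile, taken over 43020 non-control spots, was subtracted. Outlier-flagged spots were dropped, spots of a probe averaged, and a probe entered the test if all 3 arrays of either group had it well above background (31380). Symbols came from matching accessions to RefSeq genes (GRCm38.p6) for 27234 of 39429 probes, and the brightest probe stood for a gene. The groups were compared by lmFit and eBayes (limma 3.58.1, R 4.3.3), with p-values adjusted by Benjamini-Hochberg over all 25777. The procedure was tested on simulated data with independent noise. Those data held no slide effect and no shift with signal, so the test does not cover these. The number of arrays limits the precision. Intervals are 95% limma intervals without adjustment.

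The members, lists and tests were chosen with earlier results of these data known. Named genes are the 10 members, called genes or else the smallest p of each list, Srebf1, Srebf2, Insig1, Mlxipl and Hipk3; Adipoq, Gcg and the beta cell genes named with them are from the marker lists. Insig2, Mbtps1, Mbtps2 and Scap fall outside that rule and were named after their values were seen. Alternatives were quantile, median, cyclic loess and normexp (offset 50) processing, the deposited log2 table, other probe filters, every probe, trend and robust variance, array weights, replicate number or slide as a block, the first slide alone and each array left out. Figures used matplotlib 3.10.9.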

Additional observations from a re-analysis of the deposited data

How the results depend on the processing

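Directions of Fads2, Elovl6, Fads1, Scd1, Scd2, Fasn, Acly, Mlx, Idh2 and Elovl1 were the same in all 20 alternatives. Apart from Scd1 and Acly, the groups of these genes did not overlap in the main setting. Leaving out an array, weighting arrays or using the first slide alone could therefore not turn their signs. Other probe filters, the variance setting and the replicate block left the changes of these genes as they were. The number of the 10 genes called by limma was 0 in the main setting (2 at an unadjusted p of 0.05) and 2, Fads2 and Elovl6, with median scaling, cyclic loess, normexp, trend and robust variance, and array weights; leaving out single arrays gave 0 to 2. Over all genes 303 were called, 607 with median scaling, 185 in the deposited log2 table, 622 with trend and robust variance, 1805 with array weights, 124 with slide as a random block, and 0 without a filter on dim probes (5631 at an unadjusted p of 0.05), with slide as a fixed block (2677) and on the first slide alone (2872). Leaving out single arrays gave 0 to 1737, with 3346 to 7262 at an unadjusted p of 0.05. Among the 7 lists 3 genes were called, 5 with trend and robust variance and with array weights, 5 probes when every kept probe was tested, 1 with slide as a random block, and 0 without the filter, with slide as a fixed block or on the first slide alone; single arrays left out gave 0 to 4. The split of all calls was 165 lower and 138 higher, and 202 and 42 after quantile normalization, 403 and 204 with median scaling, 319 and 99 with cyclic loess, 241 and 38 with normexp, 151 and 34 in the deposited log2 table; it leaned higher with array weights (690 and 1115) and without circHIPK3 siRNA replicate 1 (351 and 1386). Median scaling moved the median of all genes from 0.08 to -0.02. With the replicate block, 0 genes were called among all genes (5134 at an unadjusted p of 0.05), 0 in the lists and 0 of the 10. Same-numbered arrays deviated together at r of -0.02, 0.27 and -0.13, and differently numbered ones at -0.35 to 0.29. These few values cannot settle whether the numbers pair the samples. Signs turned for Acaca (-0.05) and Acsl3 (-0.04) with median scaling, for Acsl3 without siGFP replicate 3 (-0.07) or circHIPK3 siRNA replicate 2 (-0.04; -0.07 to 0.16 over single arrays left out), for Elovl5 (0.06) and Insig1 (0.04) with slide as a fixed block or the first slide alone, and for Srebf2 without siGFP replicate 2 (-0.0086; -0.0086 to 0.28 over single arrays left out), none of them called. The cause of these differences was not tested.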
